A study of Mus musculus with 32 samples.

Results

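Oosp1, Oosp2 and Oosp3 encode oocyte-secreted proteins and lie next to each other on mouse chromosome 19. They are 3 of the 21887 protein-coding genes measured here, and were selected on their peaks, covered length and signal in these same lists, so the values below are a description with no test. Each gene was taken as its RefSeq span in GRCm38.p6 plus 5 kb on each side, and the 3 together as 1 cluster. All 3 were found in the annotation. Oosp2 spans 11647284 to 11660559, Oosp1 11667460 to 11691051 and Oosp3 11697055 to 11711858. The gaps between them are 6.9 and 6.0 kb, so the widened spans of Oosp2 and Oosp1 share 3100 bp and those of Oosp1 and Oosp3 share 3997 bp, and a peak there counts for both neighbours. Of 1035144 peaks in the 16 lists, 35 reached into the cluster with its flanks.

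H3K27me3 is set by Polycomb repressive complex 2 (PRC2) and H2AK119ub by Polycomb repressive complex 1 (PRC1), and both marks are known from silent developmental genes. Mouse oocytes pass from the perinatal ovary into a resting, non-growing stage inside primordial follicles, and a few at a time then enter growth, during which egg coat proteins, growth factors and other secreted products of the oocyte are made. The Oosp proteins are such products, and are related in sequence to Plac1, a protein abundant in the placenta.

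The marks were mapped by CUT&Tag, in which an antibody brings a transposase to chromatin that carries the mark. The 32 samples of mouse oocytes form 16 groups of 2, with 1 deposited peak list per group: 10 lists of H3K27me3 and 6 of H2AK119ub. Both marks were profiled in wild-type (WT) oocytes at the late fetal stage E18.5, postnatal day 1 (P1), postnatal day 6 non-growing (P6) and postnatal day 7 growing (P7). H3K27me3 was profiled in PRC1cKO oocytes, labelled Ring1-/-; Ring1F/-; Ddx4-Cre, and in PRC1ctrl oocytes, labelled Ring1-/-; Rnf2F/+; Ddx4-Cre, each non-growing at P6 and growing at P7. The floxed allele named for PRC1cKO differs from that of its control, so which gene was floxed there is not settled by the labels, and the lack of Ring1 is shared by both. Both marks were profiled in PRC2cKO (EedF/-; Ddx4-Cre) and PRC2ctrl (EedF/+; Ddx4-Cre) non-growing oocytes at P6. Ddx4-Cre is active in germ cells, the controls carry it too, and Eed encodes a core subunit of PRC2 while Ring1 and Rnf2 encode the ubiquitin ligases of PRC1. Histone peaks give no expression values, so neither oocyte identity nor the deletions could be checked from them.

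The lists differed as wholes, and read depth is unknown. The H3K27me3 lists held 49615 to 83994 peaks over 428.6 to 618.8 Mb, with a lowest total signal of 5094 to 14139. The H2AK119ub lists held 56584 to 80950 peaks over 244.2 to 728.3 Mb. The WT P7 list of H2AK119ub stood apart, with 244.2 Mb and a median peak width of 2.19 kb. With 1 list per group no difference below has a replicate check, and no test was made. A covered length is said to have risen or fallen only where it differed at least 2-fold between 2 lists and reached 1 kb in the higher one, and the share of all protein-coding genes that met the same rule is given beside it. Genes with at least 1 kb in either list of a pair form the base of that share.

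The promoters of Oosp2 and Oosp1, from 250 bases before to 50 after the start site, are shown because peaks of H3K27me3 covered them in some lists and not in others. Both genes lie on the minus strand. Oosp2 is at chr19:11660510-11660809 and Oosp1 at chr19:11691002-11691301 (RefSeq, GRCm38.p6), and CpG dinucleotides, the sites of DNA methylation, are in capitals.
Oosp2: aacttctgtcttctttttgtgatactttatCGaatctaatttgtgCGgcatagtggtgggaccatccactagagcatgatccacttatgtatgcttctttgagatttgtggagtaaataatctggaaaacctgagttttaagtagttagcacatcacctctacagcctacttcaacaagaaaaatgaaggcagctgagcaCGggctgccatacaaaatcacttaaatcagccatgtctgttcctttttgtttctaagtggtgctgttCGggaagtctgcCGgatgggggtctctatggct
Oosp1: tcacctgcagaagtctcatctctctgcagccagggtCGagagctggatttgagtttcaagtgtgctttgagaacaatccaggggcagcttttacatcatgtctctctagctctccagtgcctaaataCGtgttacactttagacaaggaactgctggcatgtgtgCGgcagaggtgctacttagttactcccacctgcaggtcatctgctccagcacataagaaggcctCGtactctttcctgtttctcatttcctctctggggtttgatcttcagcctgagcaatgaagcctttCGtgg
Each sequence held 5 CpGs in 300 bases, against a median of 7 over 32851 RefSeq mouse promoters, of which 38.0% held fewer. The ratio of observed to expected CpGs was 0.37 in Oosp2 and 0.27 in Oosp1, and the GC content was 42.3% and 49.3%, against a median of 52.7%. E-boxes (CANNTG, the same on both strands), the element bound by basic helix-loop-helix factors, were found once in the Oosp2 promoter and at 5 positions in that of Oosp1; 72.3% of all promoters held at least 1. The letters TAATTG, bound by the oocyte homeobox factor Nobox, were in neither window on either strand (8.0% of all promoters held them), and nor was TATAAA (13.6%). These matches describe the letters only.

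H3K27me3 covered the 300 bases of the Oosp2 promoter in full in 5 of 10 lists: WT E18.5, WT P1, PRC1cKO P6, PRC2cKO P6 and PRC2ctrl P6. In the other 5, WT P6, PRC1ctrl P6 and the 3 P7 lists, 0 bases were covered. The Oosp1 promoter was covered in 1 of 10 lists, WT E18.5. H2AK119ub covered neither promoter in any of its 6 lists.

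Across the WT stages H3K27me3 covered ever less of the cluster, with most of it covered before birth and no peak in growing oocytes. Over the 74575 bp of the cluster and its flanks, peaks covered 52.20 kb (70.0%) at E18.5, 30.21 kb (40.5%) at P1, 7.59 kb (10.2%) at P6 and 0 at P7. The number of peaks was 10, 5, 3 and 0 in the same order. In bins of 1 kb, 52, 30, 8 and 0 of 74 were covered over most of their length, with exact Clopper-Pearson 95% intervals of 58.5 to 80.3%, 29.3 to 52.6%, 4.8 to 20.2% and 0 to 4.9%. These intervals treat neighbouring bins as independent, which they are not.

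**Figure D1:**
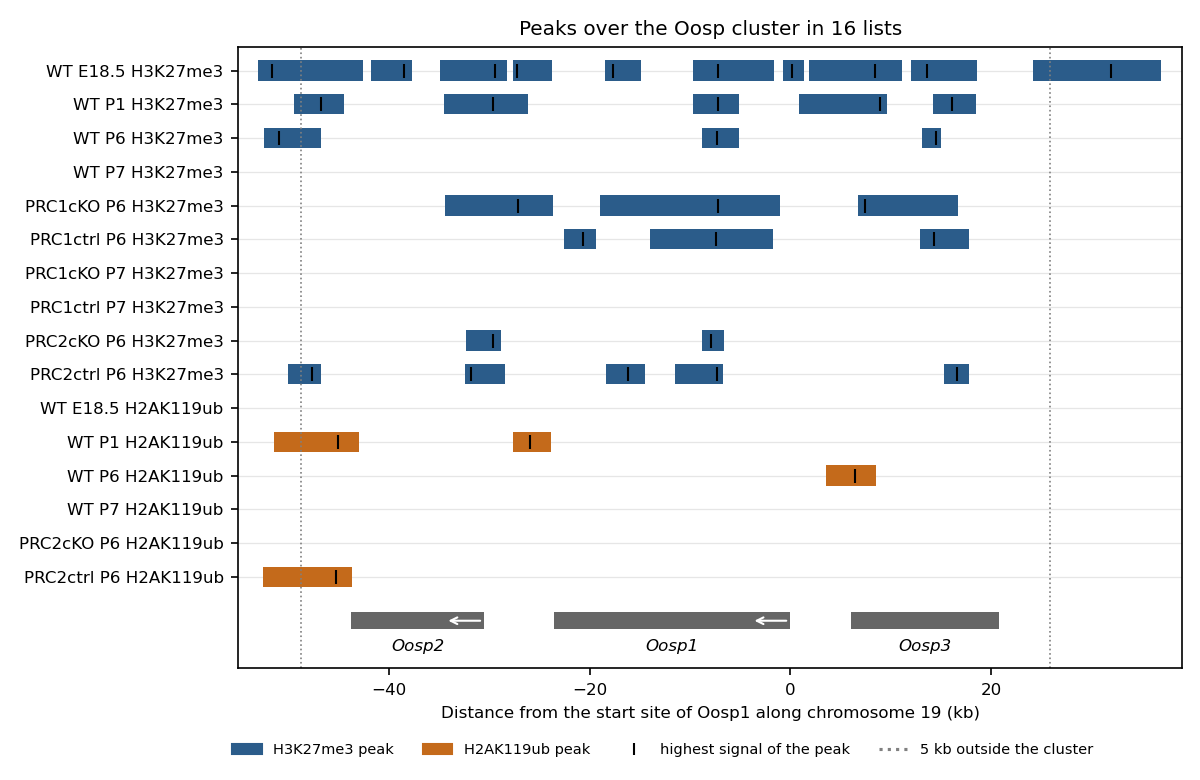
Peaks that reach into the Oosp cluster in each of the 16 lists, by distance in kb from the start site of Oosp1 along chromosome 19; each bar is 1 peak, black ticks mark its highest signal, white arrows the direction of transcription where the reference gives it, and dotted lines the 5 kb flanks. The number of H3K27me3 peaks goes from 10 at WT E18.5 to 0 in all 3 P7 lists, and a peak within Oosp1 recurs in all 7 earlier lists.

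Oosp2, once listed as a Plac1-like gene, had 18.99, 12.65, 2.00 and 0 kb of H3K27me3 at WT E18.5, P1, P6 and P7. At P6 the 2.00 kb lay in the flank toward Ms4a3, and the span itself was at 0. Oosp1, the founding member of the family, had 21.36, 11.16, 3.71 and 0 kb. Its P6 peak lay wholly inside the gene. Oosp3 had 17.95, 12.82, 1.88 and 0 kb. The order of the stages was the same for all 3 members. Between P1 and E18.5 none of the 3 differed 2-fold, where 9.50% of 12353 genes fell and 10.5% rose. Without the flanks Oosp2 and Oosp1 fell at that step, with 4.02 and 4.59 kb at P1 against 9.54 and 12.48 kb at E18.5. In P6 against P1 all 3 fell, where 10.8% of 12815 genes fell and 16.9% rose. Without the flanks Oosp1 did not, with 3.71 kb at P6 against 4.59 kb at P1. In P7 against P6 all 3 fell to 0, where 16.1% of 14016 genes fell and 27.2% rose. This count rested on small lengths, and 1 member, Oosp2, still fell with all lists trimmed to equal covered length, where the cluster difference was -2.7 percentage points in place of -10.2, and 2 fell without the flanks. The members share peaks and a locus, and were chosen with such values in view, so the counts describe 1 locus rather than 3 separate cases.

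In the WT lists the members ranked above most genes at E18.5 and P1, and at P6 they were near the middle. At E18.5 91.1%, 85.2% and 88.3% of protein-coding genes were covered over a smaller share than Oosp2, Oosp1 and Oosp3, and the median gene was covered over 4.0%. At P1 the shares were 80.3%, 71.8% and 79.4%, with a median gene of 3.7%. At P6 the shares were 53.2%, 55.4% and 52.1%, with a median gene of 5.6%. At P7 40.4% of all genes were at 0, as the 3 members were. The lowest total signal of the P7 list was 14139, and 2 of the 3 WT P6 peaks in the cluster were above that value while the third, at Oosp3, with 10833, was below it. How the signals of 2 lists are scaled to each other is not given in the sources used here, so a signal of equal number need not mean an equal amount of the mark.

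**Figure D2:**
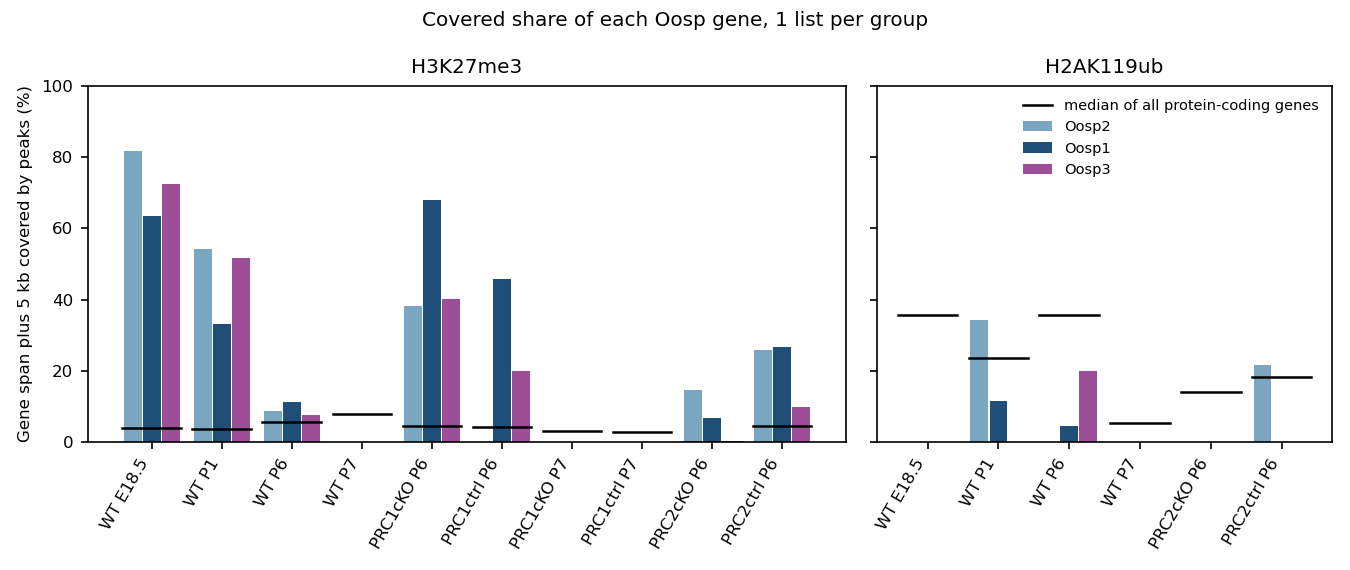
Percent of each gene span plus 5 kb covered by peaks in each list, H3K27me3 on the left and H2AK119ub on the right; bars are the authors' 1 list per group with no error, and black lines the median over 21887 protein-coding genes. H3K27me3 goes from 81.6%, 63.6% and 72.4% at WT E18.5 to 0 at P7, and the PRC1cKO P6 bars stand above those of the other P6 lists.

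Growing oocytes of the PRC1 line had no called H3K27me3 peak over the cluster either. Oosp1, Oosp2 and Oosp3 had 0 kb of H3K27me3 in the PRC1cKO and PRC1ctrl lists at P7, so all 3 lists at P7 were empty over the cluster. Among all genes 20.6% of 13107 rose and 24.8% fell in PRC1cKO against PRC1ctrl at P7, and 23.9% of 12990 fell and 4.31% rose in PRC1ctrl against WT at that age. The lowest total signal was 5094 in the PRC1cKO and 7218 in the PRC1ctrl list at P7, and all 3 cluster peaks of each P6 list were above it. In P7 against P6 oocytes Oosp1 had 0 against 22.87 kb in PRC1cKO and 0 against 15.41 kb in PRC1ctrl. Oosp2 had 0 against 8.91 kb in PRC1cKO and was at 0 at both ages in PRC1ctrl. Oosp3 had 0 against 9.96 kb in PRC1cKO and 0 against 4.91 kb in PRC1ctrl. So 3 members fell in PRC1cKO, where 24.1% of 12996 genes fell and 15.1% rose. In PRC1ctrl 2 members fell, where 25.3% of 13266 genes fell and 20.9% rose, and at equal covered length Oosp1 alone of the members fell there. Of 14109 genes with at least 1 kb in at least 1 of the 7 earlier lists, 10.5% were at 0 in all 3 P7 lists. Of the 9074 with a peak in all 7 earlier lists, which among the members holds for Oosp1, 1.77% were. The locus was chosen on such values, so this share is no measure of rarity. At equal covered length Oosp1 had a peak in 5 of those 7 lists.

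In P6 non-growing oocytes the cluster carried more H3K27me3 in PRC1cKO than in PRC1ctrl. Peaks covered 38.64 kb (51.8%) in PRC1cKO and 20.32 kb (27.2%) in PRC1ctrl, with 3 peaks in each, a difference just under 2-fold for the cluster as a whole. Oosp2 had 8.91 kb in PRC1cKO and 0 in PRC1ctrl. Its peak of 10.77 kb in PRC1cKO took in the start site and ran on toward Oosp1. Oosp3 had 9.96 kb in PRC1cKO and 4.91 kb in PRC1ctrl. Oosp1 had 22.87 kb in PRC1cKO and 15.41 kb in PRC1ctrl, a difference under 2-fold. Thus 2 of the 3 members rose and 0 fell, where 12.0% of 12638 genes rose and 14.1% fell. The main Oosp1 peak was 17.91 kb wide in PRC1cKO and 12.25 kb in PRC1ctrl, and its highest signal was 14 in each. The covered length of the whole lists was close, at 530.6 Mb in PRC1cKO and 528.4 Mb in PRC1ctrl.

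The controls differed from each other at this age as well. The cluster was covered over 27.2% in PRC1ctrl and 10.2% in WT, and over 23.1% in PRC2ctrl and 10.2% in WT. For Oosp1 the lengths were 15.41 kb in PRC1ctrl, 8.97 kb in PRC2ctrl and 3.71 kb in WT. For Oosp2 they were 0 in PRC1ctrl, 6.03 kb in PRC2ctrl and 2.00 kb in WT, another order. By the same rule Oosp1 and Oosp3 rose and Oosp2 fell in PRC1ctrl against WT, where 10.1% of 12689 genes rose and 12.8% fell. In PRC2ctrl against WT, Oosp2 and Oosp1 rose and Oosp3 differed less, where 7.48% of 12516 genes rose and 9.55% fell. The 51.8% of PRC1cKO was above all 3 controls. The gap between PRC1cKO and PRC1ctrl was 24.6 percentage points, and that between PRC1ctrl and WT 17.1, both between lists of 1 age. By their labels PRC1ctrl (Ring1-/-; Rnf2F/+; Ddx4-Cre) and PRC2ctrl (EedF/+; Ddx4-Cre) also differ from WT in Polycomb genotype.

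In PRC2cKO oocytes at P6 H3K27me3 was reduced over the cluster but not absent. Peaks covered 5.69 kb (7.6%) in PRC2cKO and 17.26 kb (23.1%) in PRC2ctrl, with 2 and 5 peaks. Oosp1 had 2.28 kb in PRC2cKO and 8.97 kb in PRC2ctrl. Oosp3 had 0 in PRC2cKO and 2.46 kb in PRC2ctrl. Oosp2 had 3.41 kb in PRC2cKO and 6.03 kb in PRC2ctrl, a difference under 2-fold. So 2 of the 3 fell, where 29.8% of 12099 genes fell and 5.08% rose. The PRC2cKO list covered 428.6 Mb and the PRC2ctrl list 558.4 Mb. With all lists trimmed to equal covered length the cluster held 7.6% in PRC2cKO and 0 in PRC2ctrl. The direction did not hold there, and Oosp2 and Oosp1 were called higher in PRC2cKO. The PRC2cKO list, the shortest for this mark, set that length and stayed untrimmed. Such trimming also takes out any difference in total length between the lists. With the 25% of peaks of lowest total signal dropped from each list the difference was -3.4 percentage points in place of -15.5, and Oosp1 alone fell. The 7.6% of PRC2cKO was also close to the 10.2% of WT. The 2 peaks in PRC2cKO lay at the Oosp2 start site and inside Oosp1, and both had overlapping peaks in PRC2ctrl.

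A stretch inside Oosp1 was the most recurrent part of the cluster. Positions 11682252 to 11684364, 2.11 kb long, were covered by H3K27me3 peaks in all 7 lists up to P6, and no other base of the cluster was covered in more than 5 of the 7 outside 2.28 kb around it. The highest signal of the peak fell between 11683053 and 11683858 in all 7, which is 7.19 to 8.00 kb downstream of the annotated start site, within the gene. Whether that is exon or intron was not looked up, since the table used gives gene spans only. The highest signal there was 16, 19 and 15 at WT E18.5, P1 and P6. It was 14 in PRC1cKO, 14 in PRC1ctrl, 9 in PRC2cKO and 13 in PRC2ctrl. In the 3 WT lists the midpoints of that highest region lay 7.25 to 7.27 kb from the start site, and the PRC2cKO midpoint, at 7.93 kb, was the farthest away. This spread was not rare, since 16.7% of 25578 regions found in all 7 lists had midpoints within the same range of 678 bp or less. This stretch was picked out after its values were seen. At equal covered length it was covered in 5 of the 7 lists, and not in WT P6 or PRC2ctrl.

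The peaks of the cluster were of middling strength. At WT E18.5 their total signal ranked between percentile 21.8 and 83.1 of that list, at P1 between 29.1 and 74.2 and at P6 between 10.7 and 49.5. They ranked between 54.6 and 77.9 in PRC1cKO and between 3.1 and 69.2 in PRC1ctrl at P6. They ranked between 13.5 and 28.5 in PRC2cKO and between 2.1 and 41.6 in PRC2ctrl. All 3 WT P6 peaks, all 5 PRC2ctrl peaks and both PRC2cKO peaks were thus below the median of their own list. Ranks in lists of different length show no change between lists.

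**Figure D3:**
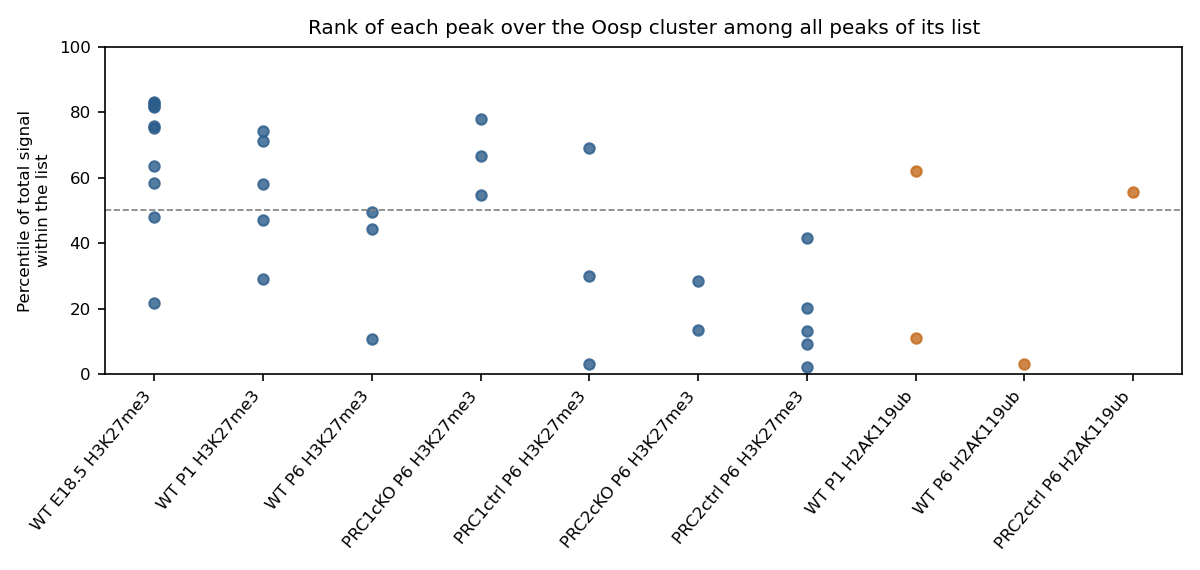
Percentile of the total signal of each peak over the Oosp cluster among all peaks of its own list, for the 10 lists that have such a peak; each point is 1 peak, blue H3K27me3 and orange H2AK119ub, and the dashed line is the median. WT E18.5 peaks reach percentile 83.1, while all WT P6 and PRC2 peaks of H3K27me3 lie below 50.

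H2AK119ub was sparse at the cluster, with 4 peaks in 6 lists, and did not follow H3K27me3. At WT E18.5, where H3K27me3 covered 70.0% of the cluster, H2AK119ub had 0 peaks there, while the median gene was covered over 35.7% in that list. In the same list 21.8% of all genes were at 0. H2AK119ub covered 9.61 kb of the cluster at WT P1, 4.95 kb at P6 and 0 at P7. Oosp2 had 0, 7.96, 0 and 0 kb at the 4 stages. Oosp1 had 0, 3.82, 1.47 and 0 kb, all of it outside the gene span. Oosp3 had 0, 0, 4.95 and 0 kb, and its 1 peak covered the lower end of the gene. In P1 against E18.5, 2 members rose, where 5.61% of 17456 genes rose and 25.1% fell. In P6 against P1, 2 members fell, where 6.72% of 17373 genes fell and 24.4% rose, and Oosp3 rose. In P7 against P6, Oosp1 and Oosp3 fell, where 66.5% of 17126 genes fell and 3.52% rose, with the narrow peaks of the WT P7 list beside it. At P6 Oosp2 had 0 in PRC2cKO and 5.04 kb in PRC2ctrl, where 17.1% of 16215 genes fell and 8.69% rose. Oosp1 and Oosp3 were at 0 in PRC2cKO and PRC2ctrl, as were 30.3% and 29.0% of all genes. The peak of PRC2ctrl and that of WT P1 both lay at the far end of Oosp2, and WT P6 had none there. In PRC2ctrl against WT at P6, Oosp2 rose and Oosp1 and Oosp3 fell, where 4.15% of 17102 genes rose and 28.8% fell. Most of these H2AK119ub calls rested on the flanks. Within the gene spans alone Oosp2 had 0.79 kb at WT P1 and 0.04 kb in PRC2ctrl, Oosp1 had 0 in all 6 lists, and Oosp3 had 2.47 kb at WT P6. Without the flanks 0 members rose in P1 against E18.5, and in P6 against P1 0 fell and Oosp3 rose. The cluster difference in P6 against P1 was then 0.5 percentage points in place of -6.3. In P7 against P6 Oosp3 alone fell, and in PRC2cKO against PRC2ctrl none did. With the 25% of peaks of lowest total signal dropped, 1 member rose in P1 against E18.5, 1 fell and 0 rose in P6 against P1, and 0 fell in P7 against P6. With a common lowest total signal for both lists Oosp1 rose instead of falling in P6 against P1. At equal covered length no member was called in any of these H2AK119ub comparisons. That length was the 244.2 Mb of the WT P7 list, so the other lists lost many of their weaker peaks. Over all 21887 genes 14.2% had no H2AK119ub peak in any list, and each of the 3 members had at least 1.

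Bases covered by both marks were counted in the groups where both were profiled. The marks overlapped on 5.81 kb of the cluster at WT P1, out of 9.61 kb of H2AK119ub, and on 2.00 kb out of 5.04 kb in PRC2ctrl. All of this lay within the widened span of Oosp2. The overlap could only be 0 at WT E18.5 and P7 and in PRC2cKO, where H2AK119ub had no peak, and it was 0 at WT P6. Overlap over all genes was not counted. At WT P6 the cluster held 7.59 kb of H3K27me3 and 4.95 kb of H2AK119ub that did not touch.

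The neighbours showed how far the pattern reached. Ms4a3, Ms4a2, Ms4a6d and Ms4a4d, members of a family of membrane proteins found mostly in blood cells, lie on one side, and Cblif, which encodes gastric intrinsic factor, Mrpl16, a mitochondrial ribosome protein, Stx3, a syntaxin, and the olfactory receptor gene Olfr1417 on the other. Ms4a3, whose widened span overlaps that of Oosp2, had 9.49, 4.26, 8.08 and 0 kb of H3K27me3 at WT E18.5, P1, P6 and P7. Ms4a6d had 10.69, 7.51, 8.07 and 0 kb. Cblif, next to Oosp3, had 2.63, 2.02, 8.16 and 3.56 kb. Ms4a2, the beta chain of the high-affinity IgE receptor, had 6.51, 3.31, 4.32 and 0 kb. Thus the 3 nearest Ms4a genes had more in WT P6 than in P1, where the Oosp genes had less, and were also at 0 in WT P7, while Cblif was not. Each of those 3 differences between P1 and P6 was under 2-fold. For Ms4a3, the 4.26 kb at P1 and part of the 8.08 kb at P6 came from peaks also counted for Oosp2. In PRC1cKO and in PRC1ctrl at P6, Ms4a3, Ms4a2, Ms4a4d and Olfr1417 were at 0, while Oosp1 and Oosp3 carried peaks in both. Ms4a6d, with 12.49 and 9.24 kb, Cblif, with 4.94 and 4.25 kb, and Mrpl16, with 2.06 and 1.48 kb, did so too. Oosp2 had 8.91 kb in PRC1cKO and 0 in PRC1ctrl. In the 3 P7 lists Ms4a3 was covered in 0, Ms4a6d in 2 and Cblif in all 3. Stx3 was at 0 in all 10 lists.

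**Figure D4:**
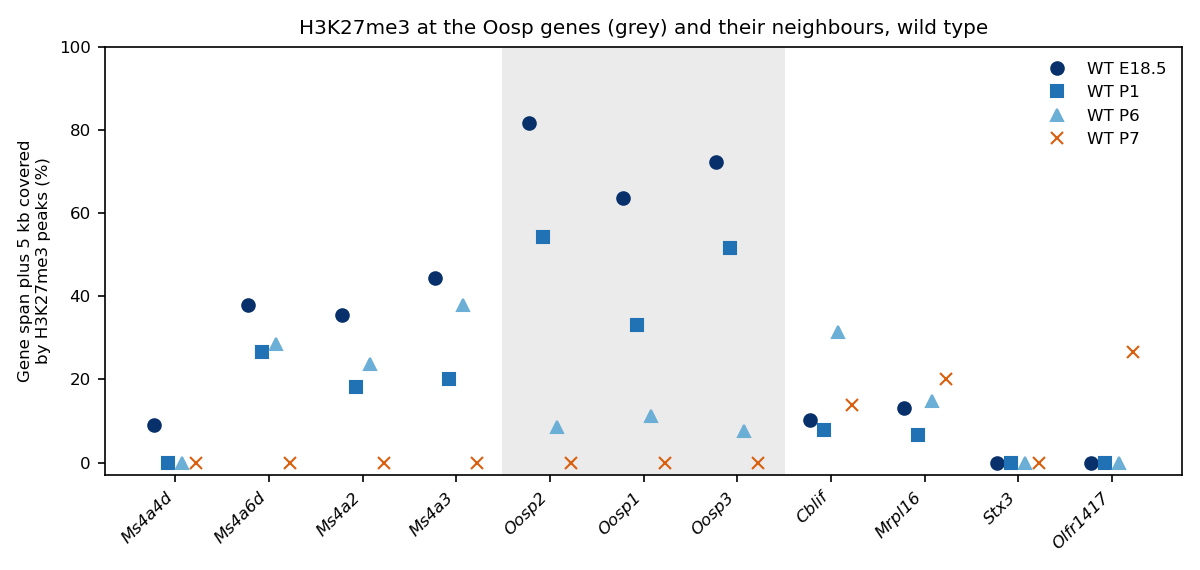
Percent of the gene span plus 5 kb covered by H3K27me3 peaks for each WT stage, with the Oosp genes in a grey band and 4 protein-coding neighbours on each side, in chromosome order; each point is 1 list. The Oosp genes are between 7.6% and 11.1% at P6 where Ms4a3 is at 37.8%, and all Oosp and Ms4a points are at 0 at P7.

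Other genes of oocyte growth were counted in the same way for H3K27me3 over a list of 42. That list excludes the Oosp genes and was written with earlier results known. In P6 against P1 WT oocytes, 14 of the 26 genes that could be called fell (53.8%) and 1 rose, against 10.8% and 16.9% of all genes, with Nlrp2, a maternal effect gene, at 7.79 against 27.61 kb. In P7 against P6, 14 of 23 fell (60.9%) and 5 rose, against 16.1% and 27.2% of all genes. Tet3, the maternal DNA demethylase, had 0 against 84.43 kb and Astl, the protease that hardens the egg coat, 0.72 against 16.86 kb, while Sohlh2, a transcription factor of early oocytes, had 14.89 against 0.72 kb. In PRC1cKO against PRC1ctrl at P6, 6 of 19 rose (31.6%) and 1 fell, against 12.0% and 14.1% of all genes. Oas1c, an oocyte member of the oligoadenylate synthetase family, had 15.91 kb in PRC1cKO, 3.17 kb in PRC1ctrl and 10.25 kb in WT. Between the controls at P6, PRC1ctrl against WT, 5 of 21 rose and 5 fell (23.8% each), against 10.1% and 12.8% of all genes. In PRC1cKO against PRC1ctrl at P7, 9 of 15 list genes rose and 2 fell, against 20.6% and 24.8% of all genes. Between the controls at P7, PRC1ctrl against WT, 4 of 11 fell and 1 rose, against 23.9% and 4.31% of all genes. Astl had 18.55 kb in PRC1cKO and 0 in PRC1ctrl, and Zar1, a factor of the maternal-to-zygotic transition, 10.32 kb in PRC1cKO and 0 in PRC1ctrl. Sohlh2 went the other way, with 0 in PRC1cKO and 12.20 kb in PRC1ctrl. The 3 Oosp genes were at 0 in both at this age. Over the list and over all genes the median change of covered length was 0 kb at this step. In PRC2cKO against PRC2ctrl, 4 of 19 fell (21.1%) and 1 rose, against 29.8% and 5.08% of all genes. The counts for H2AK119ub differed. In WT P6 against P1, 3 of 36 list genes fell and 13 rose for that mark, against 6.72% and 24.4% of all genes. In WT P7 against P6, 28 of 33 fell and 0 rose, against 66.5% and 3.52%. In PRC2cKO against PRC2ctrl, 10 of 35 fell and 4 rose, against 17.1% and 8.69%.

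Among genes elsewhere, likeness was measured as the mean absolute difference of covered percent over all 16 lists, leaving out genes within 1 Mb; the values of 1 list share its depth. The most like Oosp2 was the olfactory receptor gene Olfr1402 (7.80 percentage points), the most like Oosp1 was Clec7a, the fungal glucan receptor of myeloid cells (7.33), and the most like Oosp3 was Defb15, a beta-defensin (5.41). The median gene was 22.95, 24.19 and 21.78 points away from Oosp2, Oosp1 and Oosp3. The members were 10.93 (Oosp2 and Oosp1), 8.81 (Oosp2 and Oosp3) and 8.45 (Oosp1 and Oosp3) points from each other, below those medians. The nearest gene of each was closer still. It is the lowest of many values, so that order does not show how alike the members are. Clec7a had 61.1, 41.1, 38.1 and 0% of H3K27me3 coverage at WT E18.5, P1, P6 and P7, and Defb15 had 67.9, 38.6, 0 and 0%. The next nearest to Oosp2 were Olfr767, Olfr225, Steap4 and Oog4, to Oosp1 4933428M09Rik, Defb15, Olfr231 and Vmn2r56, and to Oosp3 Tex13c3, Syt16, Steap2 and Olah.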

How the data were processed

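CUT&Tag of H3K27me3 and H2AK119ub was made from 32 mouse oocyte samples, with Drosophila S2 cells added and reads of 150 bp, per the labels' protocols. The submitters' processing notes list SAMtools, deepTools, Bowtie2, Trim Galore 0.6.10 and Picard 3.0.0 as tools, and dm6, mm10 and GRCm38 as builds, with no role for any. The authors deposited 1 peak list per group, with a signal summed over each peak and the highest signal in it, in whole numbers. Not given in the sources used here were the peak caller, its threshold, any scaling of the signal and how 2 samples became 1 list; depth is unknown.

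Covered length and peaks were computed with Python 3.11.15 over gene spans plus 5 kb (RefSeq GRCm38.p6), and the code was tested on simulated peaks. There was 1 list per group, so no test. The members and gene lists were chosen with earlier results of these data known. Named were the members, 4 neighbours on each side and up to 3 growth genes of largest change. Also named were the 5 genes of nearest pattern for each member, outside 1 Mb and outside the growth list. Alternatives were a stricter threshold, equal covered length, no flank and a minimum overlap. The Oosp3 promoter and the protein sequences were not used here.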

Additional observations from a re-analysis of the deposited data

Results flagged for a closer look

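Between the knockout lines, H3K27me3 over the cluster at P6 differed from control in opposite directions. Covered length was higher by 24.6 percentage points in PRC1cKO than in PRC1ctrl (51.8% and 27.2%). It was lower in PRC2cKO than in PRC2ctrl, a difference of -15.5 percentage points (7.6% and 23.1%). The difference between the lines was not tested, because each group has 1 list. The controls themselves lay apart, at 27.2% in PRC1ctrl, 23.1% in PRC2ctrl and 10.2% in WT. The PRC2 difference changed sign at equal covered length, a length set by the PRC2cKO list itself.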

How the results depend on the processing

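No paired analysis was possible because each group has 1 list that joins its 2 samples, and for the same reason no sample could be left out. Differences in covered percent of the cluster are given here as later or knockout minus earlier or control. Counting only peaks with at least 50% of their width inside, or a common lowest total signal (chosen after seeing the data), changed the sign of none of the 12, though H2AK119ub in P6 minus P1 became -1.1 with the common lowest signal. Dropping the 25% of peaks with the lowest total signal kept the sign of 11 of 12; PRC2cKO minus PRC2ctrl (H3K27me3) became -3.4, and H2AK119ub became -7.8 (P6 minus P1) and 0.0 (P7 minus P6). Without flanks, H2AK119ub became -0.1 in PRC2cKO minus PRC2ctrl, and P6 minus P1 turned from -6.3 to 0.5. Trimming to equal covered length, set by the PRC2cKO list for H3K27me3 and the WT P7 list for H2AK119ub, changed most. For H3K27me3, P6 minus P1 became -32.0 and P7 minus P6 became -2.7 in WT and -16.4 in PRC1ctrl, PRC1cKO minus PRC1ctrl at P6 became 35.4, and PRC2cKO minus PRC2ctrl reversed to 7.6. All 4 H2AK119ub differences became 0.0, since the trimmed lists held no peak there. H3K27me3 lists with a peak went from 7 to 5 at Oosp1 and from 6 to 3 at Oosp3 at equal covered length. Under the stricter threshold they went from 6 to 4 at both Oosp2 and Oosp3. At Oosp2 they went to 5 under the other 3 settings. H2AK119ub lists with a peak at Oosp1 went from 2 to 1 by the overlap rule and to 0 under the other 3 settings. At Oosp2 they went to 0 at equal covered length, and at Oosp3 to 0 there and under the stricter threshold. The WT P7 H2AK119ub list has no peak here, so leaving it out (chosen after seeing the data) could not change the untrimmed counts. Trimming without it was not run. The cause of these shifts was not tested. Depth is unknown, so an empty list shows no called peak, not the absence of the mark.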
